A study of Drosophila melanogaster with 64 samples.

Results

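The genes described here are 8 genes of the endoplasmic reticulum (ER) stress response of Drosophila melanogaster, chosen by name out of the 17481 genes counted: the chaperone and lectin genes Hsc70-3, Gp93, Calr and Cnx99A, the sensor genes PEK and Ire1, and the transcription factor genes Xbp1 and crc. They were followed in every library of a time course of traumatic brain injury (TBI). Males of the strain w[1118], reared at 25 C with 12 h of light, were given a severe TBI or a sham procedure at 3 d of age. Heads were taken 1, 3, 6, 12 or 24 h and 3, 7, 10 or 15 d afterwards, and control heads came from uninjured males of 3 d. All flies shared the 1 genotype, and each sample pooled 20 whole heads. The later groups were also older than the controls. Each group had 3 samples, and 2 samples at 15 d. PolyA RNA was sequenced in libraries prepared on 2 days: library day 2 covered control heads with 1 h through 24 h, and library day 1 covered control heads with 24 h through 15 d. The control and 24 h RNAs, 9 in all, were therefore sequenced on each day.

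The ER folds secreted and membrane proteins. When unfolded proteins collect in its lumen, the chaperone Hsc70-3 (the fly BiP) leaves the sensors to bind them, and the sensors Ire1 and PEK (the fly PERK) become active. Ire1 cuts an intron out of the Xbp1 transcript, which then encodes a factor that raises chaperone genes, while PEK phosphorylates the translation factor eIF2alpha, which slows most protein synthesis and favours translation of crc (the fly ATF4). These steps act on splicing, phosphorylation and translation, and counts per gene record none of them: they measure how much transcript of each gene was present.

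Reads assigned to genes came to 18.6 to 44.9 M per library on day 2 (33 libraries, median 24.3 M) and 9.16 to 26.4 M on day 1 (31 libraries, median 16.1 M). All 8 genes passed the filter on low counts on both days, with 646 to 14503 counts per library on day 2 and 811 to 16195 on day 1. The part of counting error in the spread between samples was not tested. Levels are given as counts-per-million values (CPM) of single libraries, in the order of their replicate numbers. A gene is said to have risen or fallen where its p from edgeR's quasi-likelihood test, adjusted by Benjamini-Hochberg over all genes tested on that day (10739 on day 2, 10567 on day 1), was under 0.05. Differences are log2 fold changes ± standard error, TBI over sham unless stated. The markers of the labelled tissue were present: summed levels on day 2 were 30850 to 53919 CPM for 5 photoreceptor genes, 4441 to 8134 CPM for 5 neuron genes and 1281 to 2386 CPM for 5 glia genes. Fat body genes were also abundant (2278 to 12073 CPM for 5 genes, among which Fbp1 lay at 0 to 0.201 CPM). In such whole-head samples, fewer cells of a type and less RNA per cell cannot be told apart.

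Per kilobase of exon, the level in the day 2 controls was highest for crc (95.3 ± 14.1 CPM per kb, SD, n = 3), followed by Xbp1 (82.0 ± 2.92), Calr (73.5 ± 15.1), Hsc70-3 (55.6 ± 6.39), Cnx99A (49.7 ± 3.48), Ire1 (28.4 ± 1.33), Gp93 (15.2 ± 4.31) and PEK (12.0 ± 0.898). The single libraries of crc, Xbp1 and Calr overlapped (80.2 to 108, 79.4 to 85.2 and 56.3 to 84.1 CPM per kb), as did those of Calr and Hsc70-3 (48.4 to 60.7), those of Hsc70-3 and Cnx99A and those of Gp93 and PEK, so these neighbours were not separated by their spread. The sensor genes and Gp93 thus formed the low end, and on day 1 Gp93, Ire1 and PEK again had the lowest levels (33.2 ± 4.21, 26.8 ± 0.175 and 15.7 ± 1.22 CPM per kb). The order within each end differed between the days. In the day 1 controls Xbp1 (161 to 178 CPM per kb) and Calr (117 to 148) lay above crc (83.6 to 108), and Gp93 (30.6 to 38.1) lay above Ire1 (26.7 to 27.0), all without overlap. The place of crc is uncertain, since 73.5% of its exonic bases (2515 bp) are shared with CG46314 on the same strand in the BDGP6.54 annotation. CG46314 had 0 counts in every library.

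In the early hours after injury the sensor genes PEK (1 h and 3 h) and Ire1 (1 h) rose. PEK, the kinase that phosphorylates eIF2alpha, was at 98.1, 80.6 and 80.9 CPM in TBI heads at 1 h, against 60.1, 63.0 and 60.5 CPM in sham heads, and 56.5, 55.2 and 63.4 CPM in the controls. Every TBI library lay above every sham and control library. PEK rose by 0.50 ± 0.08 (edgeR, adjusted p = 1.01e-04; 95% interval 0.33 to 0.66), and with any 1 of the 6 libraries left out the difference was 0.40 to 0.55 and still passed. At 3 h the TBI heads held 72.9, 67.2 and 71.4 CPM against 55.4, 59.4 and 59.1 CPM in sham heads, again with no overlap. The rise was 0.28 ± 0.08 (edgeR, adjusted p = 0.0134), and it did not pass without sham replicate 1 (adjusted p = 0.0759), without TBI replicate 1 (0.0683), with no filter on low counts (0.0929) or in a fit of those 6 libraries alone (0.116). PEK (FBgn0037327) lies on chromosome 3R, 5458563 to 5464753, minus strand; positions here and below are those of the BDGP6.54 annotation.

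The PEK difference was smaller at the later hours. It was 0.14 ± 0.08 at 6 h (66.7, 69.9 and 64.9 CPM in TBI heads, against 58.4, 60.5 and 63.2 CPM in sham heads), 0.04 ± 0.08 at 12 h and 0.02 ± 0.08 at 24 h, and none of these passed (edgeR, adjusted p = 0.300, 0.886 and 0.918). A joint test of whether the TBI effect was the same at all 5 times was passed by PEK (adjusted p = 0.0386), in a test that 3.68% of all genes passed, and by no other of the 8 genes. Leaving out 1 library gave PEK an adjusted p of 0.0278 to 0.124 in this test, and 16 of the 30 libraries, when left out, took it past 0.05. Averaged over the 5 times PEK rose by 0.20 ± 0.04 (edgeR, adjusted p = 6.96e-05), a call kept with any 1 of 30 libraries left out, and it was 1 of 8 members to pass where 30.7% of all genes did.

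Ire1, the sensor that splices Xbp1, was also higher 1 h after injury. TBI heads held 152, 131 and 152 CPM, against 114 to 128 CPM in sham heads and 109 to 120 CPM in the controls, with no overlap. The rise was 0.28 ± 0.08 (edgeR, adjusted p = 0.0186). It lost its call without TBI replicate 1 or 3 or without sham replicate 1 or 2 (0.25 to 0.26, adjusted p = 0.0819 to 0.110), with no filter on low counts (0.118) and in a fit of those 6 libraries alone (0.0748). At 3 h the groups overlapped (124, 128 and 112 CPM in TBI heads, against 121, 121 and 111 CPM in sham heads). At 24 h the difference was -0.18 ± 0.08 on day 2 and -0.16 ± 0.10 on day 1, from the same RNAs (edgeR, adjusted p = 0.178 and 0.296). The joint test over times gave Ire1 an adjusted p of 0.0931 in edgeR and 0.00948 in DESeq2. Ire1 (FBgn0261984; 3R, 19853908 to 19861291, minus strand) shares 496 bp of exon, 12.3% of its length, with MICU3 on the opposite strand, and the sources used here do not say whether strand was used in counting.

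**Figure D1:**
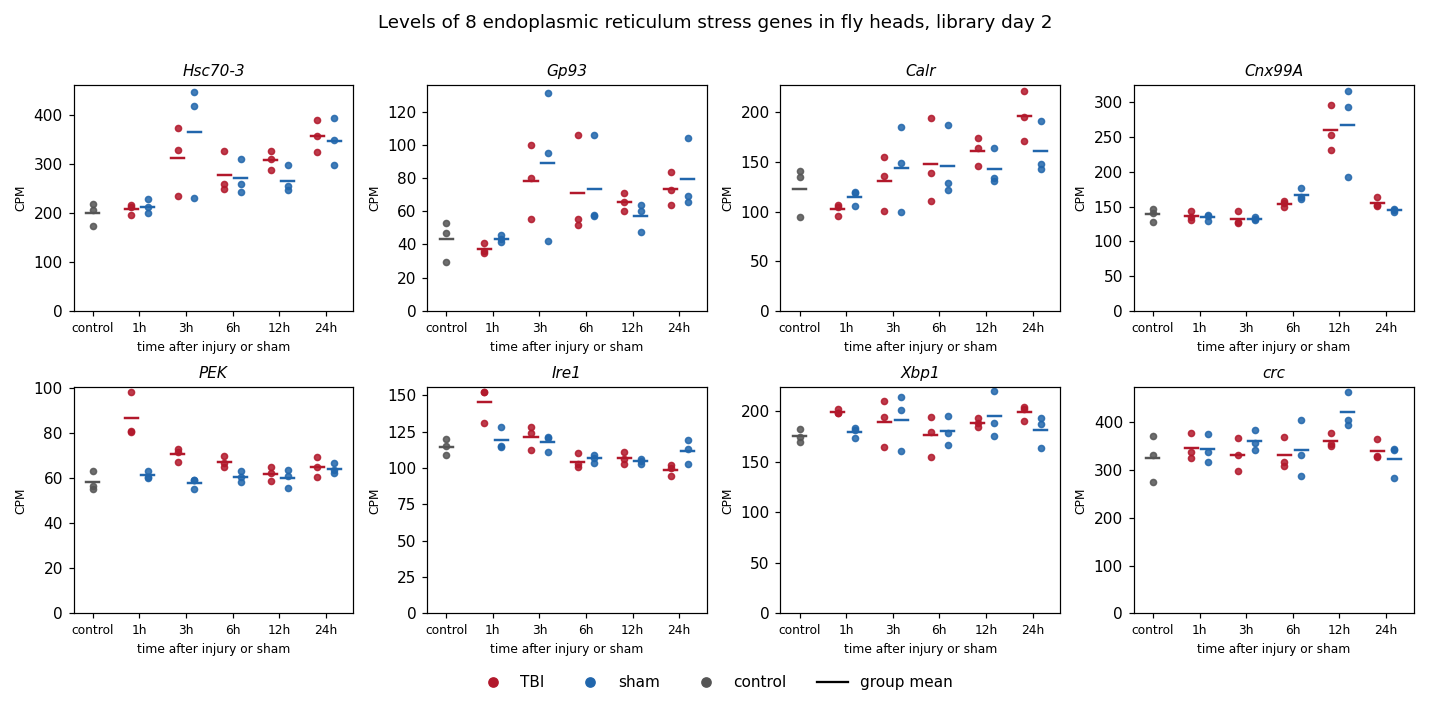
Levels (CPM, linear axes from 0) of the 8 genes in each library of library day 2, by time after injury or sham, with TBI in red left of sham in blue and uninjured controls in grey; horizontal lines are group means of 3 libraries. PEK at 1 h and 3 h and Ire1 at 1 h stand apart from sham, Cnx99A is high at 12 h in both groups, and Hsc70-3, Gp93 and Calr spread widely within groups.

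These 2 were all the members called at 1 h, out of 8, where 7.39% of all genes passed, and both rose. At 3 h PEK was the 1 member called, against 16.5% of all genes. At 6, 12 and 24 h of day 2 no member passed in edgeR, against 12.1%, 8.62% and 8.4% of all genes. None passed in DESeq2 either, against 13.8%, 9.99% and 9.8% of all genes. The members at an unadjusted p under 0.05 in edgeR numbered 0, 0 and 1 (Ire1 at 24 h). The median difference of the 8 members was 0.02 at 1 h and -0.07 at 3 h, beside 0.01 and 0.02 over all genes tested. Markers of other cell types moved with injury at the same times. The summed level of fat body markers was 4110 to 6085 CPM in TBI heads against 6814 to 10504 CPM in sham heads at 1 h, and 2278 to 3490 CPM against 5913 to 7791 CPM at 3 h, and averaged over 1 to 24 h all 4 fat body genes tested fell. Hemocyte markers had a median difference of -1.30 at 1 h with 1 of 5 called, beside -0.96 for the fat body markers with 1 of 4 called, and -0.29 at 3 h. Of the 5 glia markers 1 rose and 1 fell at both times. The part of these markers in the PEK and Ire1 results was not tested.

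Hsc70-3, a common reporter of the unfolded protein response, held 212, 216 and 195 CPM in TBI heads at 1 h, against 211, 228 and 199 CPM in sham heads. At 3 h the values were 372, 327 and 234 CPM in TBI heads and 418, 447 and 229 CPM in sham heads, so the replicates of a group differed more than the groups. Over the 5 times of day 2 its TBI differences ran from -0.23 to 0.21, with 95% intervals reaching from -0.60 to 0.59. Averaged over these times the difference was 0.01 ± 0.08 (95% interval -0.16 to 0.17; edgeR, adjusted p = 0.961). Without sham replicate 3 at 3 h, the library with 229 CPM, Hsc70-3 was lower in TBI heads (-0.48, edgeR adjusted p = 0.0449). That fit kept TBI replicate 3, which was also the lowest of its group at 234 CPM, so nothing is read from this call. Hsc70-3 (FBgn0001218) lies on chromosome X, 11801696 to 11807117, minus strand.

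Gp93, the fly GRP94 and an HSP90 of the ER lumen, varied most among the 8 genes on day 2, with 29.5 to 131 CPM over all libraries. Its TBI differences there were -0.22 to 0.21, and their 95% intervals ran from -0.89 to 0.87, so changes of that size could not be resolved. Calr, the calcium-binding lectin calreticulin, had TBI differences of -0.17 (1 h), -0.14 (3 h), 0.02 (6 h), 0.17 (12 h) and 0.28 (24 h), each ± 0.21, and none passed (edgeR, adjusted p 0.472 or more). Gp93 (FBgn0039562; 3R, 27948711 to 27952151, plus strand) shares 101 bp of exon, 3.56%, with CG4951 on the opposite strand. Calr (FBgn0005585) lies at 3R, 9628691 to 9630851, minus strand.

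At 24 h the same RNAs were prepared on both days, and Calr was the member with the largest TBI difference on each. On day 2 TBI heads held 195, 171 and 221 CPM, against 143, 148 and 192 CPM in sham heads. On day 1 they held 378, 376 and 466 CPM, against 270, 299 and 382 CPM in sham heads. In each replicate number and on each day the TBI library was the higher one, although the groups overlapped. The difference of 0.36 ± 0.15 on day 1 had an adjusted p of 0.103, and that of 0.28 ± 0.21 on day 2 an adjusted p of 0.472 (edgeR). With sham and TBI libraries of a number taken as pairs within each time, it passed on day 2 (0.29, adjusted p = 0.0373) and on day 1 (0.35, 0.00294), in fits that called 18.1% and 27.6% of all genes. In replicate 2 the sham and TBI libraries of 24 h had r = 0.121 on day 2 and 0.0791 on day 1, from the same RNAs. These lie on either side of the r of 0.1 taken as the mark of deviating together, so that mark does not set the days apart. Without sham replicate 3 of day 1 it passed as well (0.51, 0.0241). No member passed at 24 h on day 1 in the unpaired edgeR fit or in DESeq2, where 15% and 17.7% of all genes passed. In that edgeR fit 1 member (Calr) had an unadjusted p under 0.05. At 24 h of day 1, 3 of 5 neuron markers fell (median difference -0.42), as did 2 of 4 fat body markers (median -1.66) and 1 of 5 each of the glia, muscle and photoreceptor markers. Their part in the 24 h values was not tested.

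**Figure D2:**
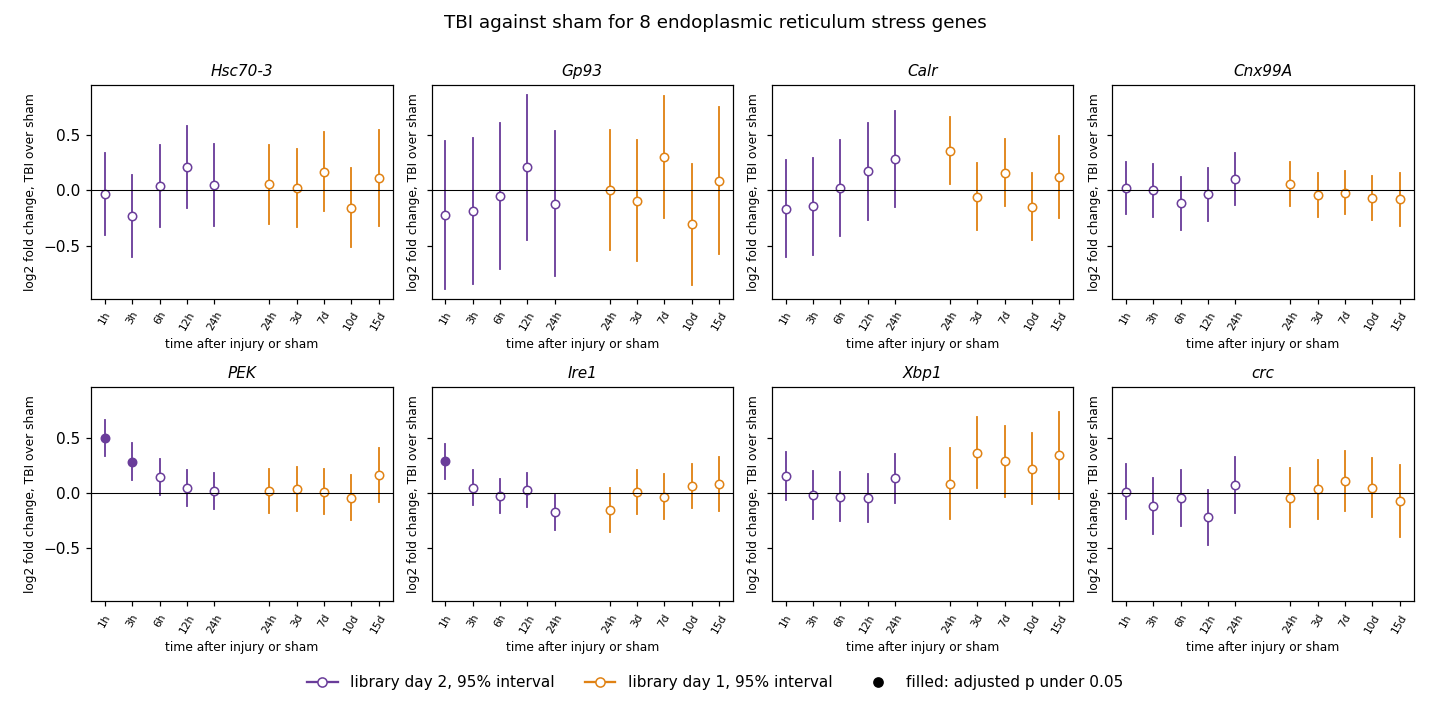
Log2 fold change of TBI over sham for each gene at 10 comparisons, 5 on library day 2 (purple, 1 h to 24 h) and 5 on library day 1 (orange, 24 h to 15 d); bars are 95% intervals from edgeR and filled points have an adjusted p under 0.05. The filled points are PEK at 1 h and 3 h and Ire1 at 1 h, and the intervals of Gp93 are the widest.

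Cnx99A, the calnexin needed in fly photoreceptors for rhodopsin to mature, differed between times of collection, with TBI differences of -0.12 to 0.10 on day 2. At 12 h it held 296, 254 and 231 CPM in TBI heads and 293, 316 and 192 CPM in sham heads. In all other groups of day 2 it lay between 126 and 177 CPM, below each of the 6 libraries of 12 h. The TBI difference at 12 h was -0.04 ± 0.12 (95% interval -0.27 to 0.20; edgeR, adjusted p = 0.944). Levels of Cnx99A in the control and the 5 sham groups of day 2 differed (joint edgeR test, adjusted p = 1.83e-06), and with any 1 library left out the adjusted p was 5.71e-10 to 7.54e-05. The lowest of the 12 h libraries, sham replicate 3, also had the smallest share of mitochondrial counts of day 2 (11.2%, against a median of 17.3%). Cnx99A (FBgn0015622) lies at 3R, 29315254 to 29319644, minus strand.

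Hsc70-3 also differed among these sham and control groups of day 2 (adjusted p = 0.00446; 9.76e-05 to 0.0158 with 1 library left out). It held 174, 207 and 218 CPM in the controls, and in sham heads 199 to 228 CPM (1 h), 229 to 447 CPM (3 h), 243 to 309 CPM (6 h), 245 to 297 CPM (12 h) and 297 to 393 CPM (24 h). The sham heads of 3 h or later thus lay above all controls. Gp93 had an adjusted p of 0.0690 in edgeR and 0.00938 in DESeq2 in this test, and passed without sham replicate 3 of 3 h (0.00968). The 2 members called compare with 11.3% of all genes. Of the other members crc (0.175), Ire1 (0.309), Calr (0.474), PEK (0.678) and Xbp1 (0.798) did not pass. The sham groups differ from the controls in handling and age at once. Groups taken at different hours can also differ in time of day, which the labels do not give. These cannot be told apart here.

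Over the 11 group means of day 2, which share libraries and depth with each other, the genes with the pattern most like Hsc70-3 among 6547 genes of at least 10 CPM were P58IPK, a co-chaperone of the ER (Pearson r = 0.954), Gp93 (0.936), shv (0.925), CaBP1 (0.923) and CG4393 (0.917), given as a description. On day 1 the same genes had r = 0.939, 0.744, 0.918, 0.860 and 0.284. Calr stood at rank 19 on day 2 (0.816), while Xbp1 (0.27), Cnx99A (0.14), crc (0.04), PEK (-0.21) and Ire1 (-0.50) were unlike it. Gp93 and Calr were thus the members whose group means went most with those of Hsc70-3, and the sensor and transcription factor genes had lower r.

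Within groups, libraries of the same replicate number often deviated the same way in Hsc70-3. In 11 of 15 pairs of day 2 and 10 of 14 pairs of day 1, the TBI library and the sham library of the same number and time lay on the same side of their group means. The pairs of a time are not independent, since deviations within a group cancel out, and the 24 h RNAs count on both days. Other genes were not counted in this way, so these counts are not read as particular to Hsc70-3. At 3 h the libraries of replicate 3 were the lowest of both groups (234 CPM in TBI heads and 229 CPM in sham heads), and at 6 h those of replicate 1 were the highest of both (327 and 309 CPM). Gp93 did likewise at 6 h, with 106 CPM in replicate 1 of each group and 51.7 to 57.5 CPM in the others.

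**Figure D3:**
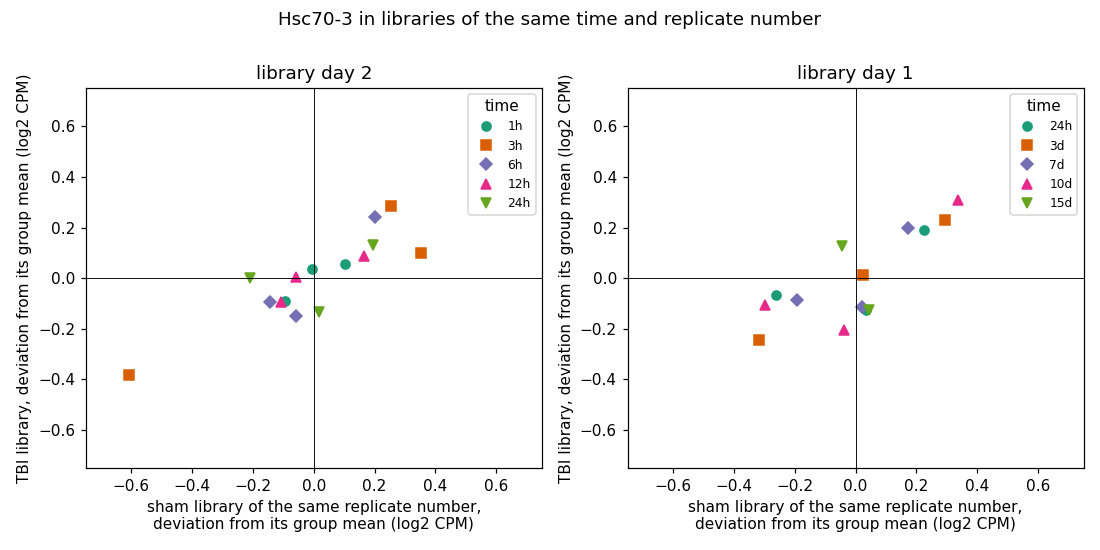
Deviation of Hsc70-3 from its group mean (log2 CPM) in the TBI library (vertical) and in the sham library of the same time and replicate number (horizontal), 15 pairs of library day 2 on the left and 14 of day 1 on the right. Points at the lower left and upper right are pairs that deviate the same way, 11 and 10 of them.

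Xbp1, whose transcript Ire1 splices, held 198 to 203 CPM in TBI heads at 1 h and 174 to 184 CPM in sham heads, with no overlap, but the difference of 0.16 ± 0.11 did not pass (edgeR, adjusted p = 0.506). The later hours gave -0.05 to 0.13. The values set side by side are totals of all Xbp1 transcripts, spliced and unspliced. crc, the fly ATF4, had TBI differences of -0.22 to 0.07 on day 2 and none passed (edgeR, adjusted p 0.362 or more). Its 95% intervals on that day reached from -0.47 to 0.33. Xbp1 (FBgn0021872) lies on chromosome 2R, 21143545 to 21145750, plus strand, and crc (FBgn0000370) on chromosome 2L, 21310866 to 21319527, plus strand.

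From 3 d to 15 d no member passed at a single time, and among the members Xbp1 alone passed once the 4 times were averaged. At 3 d it held 411, 506 and 467 CPM in TBI heads, against 325, 339 and 412 CPM in sham heads. At 7 d it held 452, 427 and 445 CPM in TBI heads, against 314, 406 and 365 CPM in sham heads. At 10 d it held 485, 558 and 589 CPM in TBI heads, against 467, 430 and 505 CPM in sham heads. The groups did not overlap at 7 d, and at 3 d and 10 d all but 1 TBI library lay above all sham libraries. At 15 d the TBI libraries stood far apart from each other, at 391 and 800 CPM, with sham libraries at 479 and 460 CPM between them. The differences were 0.36 ± 0.16, 0.29 ± 0.16, 0.22 ± 0.16 and 0.34 ± 0.19, none of which passed by itself (edgeR, adjusted p = 0.436, 0.851, 0.884 and 0.828).

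Averaged over 3 d to 15 d Xbp1 rose by 0.30 ± 0.08 (edgeR, adjusted p = 0.0231; 95% interval 0.13 to 0.47). It was 1 of 8 members called, where 6.97% of all genes passed. Without the TBI library at 800 CPM (TBI replicate 2 of 15 d) the value was 0.14 and did not pass (adjusted p = 0.197). It also missed the threshold without sham replicate 1 or 2 of 15 d, sham replicate 1 of 3 d or TBI replicate 2 of 3 d (0.27 to 0.31, adjusted p = 0.0508 to 0.0722) and in a fit of only the groups compared (0.0692). Without TBI replicate 1 of 15 d, the library at 391 CPM, Xbp1 passed at 15 d (0.76, adjusted p = 0.0216). Over the same times the 5 muscle markers had a median difference of 0.31 with 1 called, the 5 photoreceptor markers one of -0.19 with 1 called, the 5 glia markers one of 0.21 and the 4 fat body markers tested one of -0.29. Of the glia and fat body markers 0 were called in edgeR, 3 and 1 had an unadjusted p under 0.05, and 1 and 0 were called in DESeq2. Their part in the Xbp1 value was not tested.

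At 3 d, 7 d, 10 d and 15 d no member was called in edgeR, against 1.35%, 0.227%, 0.473% and 0.0379% of all genes. None was called in DESeq2 either, against 2.47%, 1.12%, 1.19% and 0.322% of all genes. The members at an unadjusted p under 0.05 in edgeR numbered 1 (Xbp1), 0, 0 and 0. The joint test of the TBI effect by time on day 1 called 0 members in edgeR, where 0.407% of all genes passed. It called 0 in DESeq2, where 1.6% of all genes passed, and 0 members had an unadjusted p under 0.05 in edgeR. The late averages of the other 7 members lay between -0.05 (Cnx99A) and 0.04 (Hsc70-3 and PEK). Their 95% intervals were -0.16 to 0.05 for Cnx99A, -0.15 to 0.23 for Hsc70-3, -0.07 to 0.15 for PEK and -0.29 to 0.29 for Gp93.

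**Figure D4:**
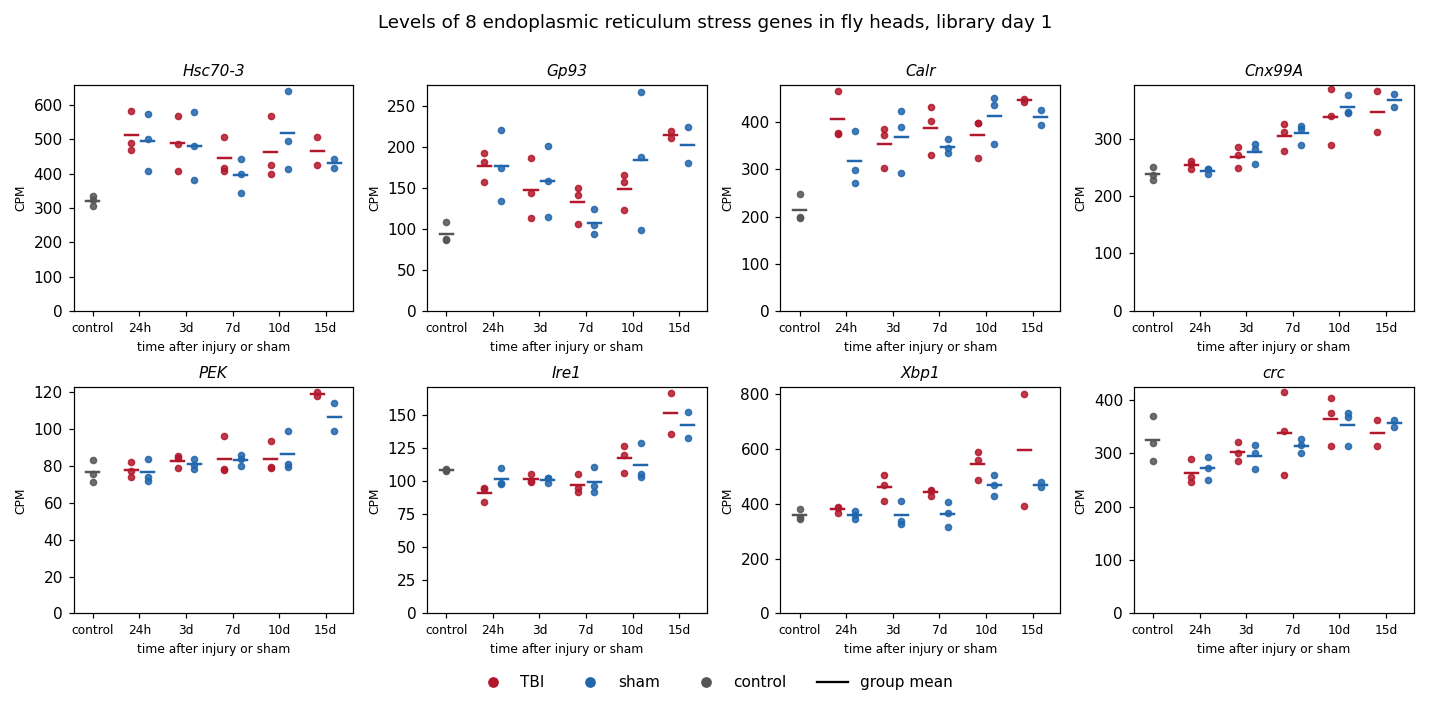
Levels (CPM, linear axes from 0) of the 8 genes in each library of library day 1, by time after injury or sham, with TBI in red left of sham in blue and controls in grey; horizontal lines are group means of 3 libraries (2 at 15 d). Cnx99A is higher at 7 d to 15 d than in the controls in both groups, Calr lies above the controls at all times, and 1 TBI library at 15 d reaches 800 CPM of Xbp1.

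Sham and control levels on day 1 differed between times in most members. In the joint test of the control and 5 sham groups, 6 of 8 members passed, where 34.3% of all genes did. Cnx99A (adjusted p = 3.98e-05) was at 229, 237 and 251 CPM in the controls, at 238 to 247 CPM in sham heads at 24 h, 256 to 291 CPM at 3 d, 289 to 322 CPM at 7 d, 344 to 375 CPM at 10 d and 355 to 378 CPM at 15 d. Calr (3.25e-04) was at 270 to 452 CPM in the sham libraries and at 196 to 249 CPM in the controls, which did not overlap. Hsc70-3 (0.0235) was at 344 to 642 CPM in sham heads and at 305 to 334 CPM in the controls, and without any 1 of the controls it did not pass (0.0601 to 0.0893). Gp93 (0.0122) was at 94.0 to 267 CPM in sham heads and at 86.8 to 108 CPM in the controls, with overlap, and did not pass in a fit of only the groups compared (0.0603).

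The sensors were high at 15 d. PEK held 118 and 120 CPM in TBI heads and 114 and 98.9 CPM in sham heads at that time, against 71.2 to 82.9 CPM in the controls. Ire1 held 136 and 167 CPM in TBI heads and 153 and 133 CPM in sham heads, against 108 to 109 CPM in the controls. In the joint test of sham and control levels PEK had an adjusted p of 0.00893 and Ire1 one of 0.00381, and without sham replicate 1 of 15 d neither passed (0.176 and 0.122). crc (0.141) did not pass, and neither did Xbp1 (0.0833), which passed with the replicate number as a block (0.0353), with only the groups compared (0.0122) and without sham replicate 3 of 3 d (0.0432). Neuron markers moved over the same groups: their summed level was 4123 to 5161 CPM in sham heads from 3 d on and 6295 to 9195 CPM in the controls, and all 5 passed the same joint test. Muscle markers were at 1110 to 1780 CPM in sham heads from 3 d on and 2072 to 2486 CPM in the controls, and 4 of 5 passed. The mitochondrial share of counts was 1.64% to 6.71% in sham heads from 3 d on and 10.3% to 15.5% in the controls. The part of these shifts in the members' values was not tested.

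Levels also differed between the library days. Across the 18 libraries of the 9 RNAs prepared on both days, 7 of 8 members differed between library days, where 66.2% of 10531 genes did. Day 2 was lower than day 1 by a log2 difference of -0.92 for Gp93, -0.70 for Xbp1, -0.67 for Calr, -0.47 for Cnx99A and -0.30 for Hsc70-3, and higher by 0.49 for crc and 0.39 for Ire1. PEK did not pass (-0.02 ± 0.04; edgeR, adjusted p = 0.707). For this reason no level of day 2 is set against a level of day 1 here.

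The wider pathway was read from 4 lists of other ER genes. Of 10 measured ER chaperones and folding enzymes, 9 genes of ER-associated degradation and 7 translocon genes, none passed in edgeR in any of the 10 comparisons of TBI with sham at a single time. These are 100, 90 and 70 gene values, of which 5, 7 and 6 had an unadjusted p under 0.05, and DESeq2 called 1 (Ero1L at 3 d), 1 (Herp at 3 h) and 0. With sham and TBI libraries as pairs within each time, edgeR called 5, 3 and 9 of these values, where 12.4% of all gene values passed. The translocon calls were SsRbeta, Sec61gamma and Sec61alpha at 3 h, and Sec61beta, SsRbeta and Sec61alpha at 24 h on each day. Those of the chaperones were Uggt and ERp60 at 1 h, CaBP1 at 12 h, ERp60 at 24 h on day 2 and Ero1L at 3 d. Those of degradation were Edem2 at 1 h, Herp at 3 h and Ufd1 at 24 h on day 1. In that paired fit Edem2 was lower in TBI heads at 1 h (-0.25, edgeR adjusted p = 0.0353). In the unpaired fit of all groups it did not pass at 1 h (edgeR, adjusted p = 0.158). At 3 h the unpaired fit called Edem2 only without sham replicate 3 (-0.33, edgeR adjusted p = 0.0292). Averaged over 1 to 24 h, Edem2, which guides misfolded glycoproteins to degradation, fell by 0.17 ± 0.05 on the log2 scale (edgeR, adjusted p = 0.00555). The median difference in that average was -0.03 for the chaperone list, -0.02 for degradation and 0.02 for the translocon, beside -0.01 over all genes.

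Of the 8 measured genes tied to eIF2alpha phosphorylation, ATF4 and ATF6, 4 passed in at least 1 comparison of TBI with sham in the edgeR fit of all groups. They were Nmdmc, trbl, Thor and eIF2alpha, all upwards. Over the 10 comparisons of single times 6 of 80 gene values passed in edgeR and 7 in DESeq2, and 20 had an unadjusted p under 0.05. The share of all gene values at that unadjusted threshold was not counted, so nothing is read from the 20. The 6 values are near the share over all genes, of which 7.05% of values passed in edgeR and 8.35% in DESeq2. At 3 h 2 of the 8 passed, where 16.5% of all genes did. Nmdmc, an enzyme of mitochondrial folate metabolism whose transcription depends on crc, held 90.6, 77.9 and 34.4 CPM in TBI heads at 3 h, against 28.0, 27.4 and 11.8 CPM in sham heads. It rose by 1.59 ± 0.38 over sham (edgeR, adjusted p = 0.00403), with no overlap between TBI and sham and replicate 3 lowest in each. The day 2 controls, at 27.1, 37.7 and 51.3 CPM of Nmdmc, overlapped both the TBI and the sham libraries of 3 h. The pseudokinase gene trbl, whose mammalian relative TRIB3 is an ATF4 target, held 13.3, 14.1 and 9.29 CPM in TBI heads, against 7.23, 7.92 and 4.97 CPM in sham heads, and rose by 0.86 ± 0.20 (adjusted p = 0.00348). Both calls held with any 1 of the 6 libraries left out. In a fit of those 6 libraries alone trbl passed (0.0389) and Nmdmc did not (0.0544). With sham and TBI libraries as pairs, edgeR called 9 of the 80 gene values, where 12.4% of all gene values passed. Among them Nmdmc also passed at 6 h (0.93, adjusted p = 0.0295), trbl at 24 h on day 2 (0.58, 0.0134) and Thor at 3 h (0.41, 0.0296). AsnS at 1 h and Atf6 at 24 h on day 1 passed only with pairs as well. Thor at 3 h passed with those 6 libraries alone too (0.0287), and had an adjusted p of 0.0691 in the fit of all groups. At 12 h the highest TBI library of Nmdmc, at 17.0 CPM, lay below the lowest sham library, at 17.8 CPM. The joint test over times passed for Nmdmc (0.0359), with an adjusted p of 0.0118 to 0.0893 when 1 library was left out and no call in 16 of those 30 fits. It did not pass with the replicate number as a block (0.0516) or with no filter on low counts (0.101).

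Thor, the eIF4E-binding protein that restrains translation and is a target of crc, rose at 3 d and 10 d. At 3 d it held 387, 386 and 261 CPM in TBI heads, against 121, 118 and 120 CPM in sham heads, and rose by 1.53 ± 0.28 (edgeR, adjusted p = 0.00589; 0.00395 to 0.0451 with 1 library left out). At 10 d it held 210, 569 and 526 CPM in TBI heads, against 166, 170 and 182 CPM in sham heads (1.33 ± 0.28, adjusted p = 0.0342). Nmdmc at 10 d held 142, 203 and 130 CPM in TBI heads, against 36.8, 33.0 and 49.5 CPM in sham heads (1.99 ± 0.40, adjusted p = 0.0305). For both genes TBI and sham did not overlap at 10 d. The day 1 controls held 139, 148 and 147 CPM of Thor, above the sham libraries of 3 d and below those of 10 d. Of Nmdmc they held 52.1, 64.1 and 83.3 CPM, above the sham and below the TBI libraries of 10 d. At 7 d Nmdmc was at 72.0, 52.1 and 57.3 CPM in TBI heads, which overlapped these controls, and at 21.2, 28.7 and 29.5 CPM in sham heads. Thor did not pass at 7 d (0.24 ± 0.28, adjusted p = 0.966) or at 15 d (0.73 ± 0.34, 0.749), where the groups overlapped. Each 10 d call was lost when any library but TBI replicate 1 of 10 d was left out, and with sham and TBI libraries as pairs (adjusted p = 0.145 for Thor and 0.0797 for Nmdmc).

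Averaged over 3 d to 15 d Nmdmc rose by 1.44 ± 0.21 (edgeR, adjusted p = 1.11e-04) and Thor by 0.96 ± 0.15 (1.83e-04), both in every fit with 1 of 22 libraries left out. In this late average 2 of the 8 list genes passed, where 6.97% of all genes did. Averaged over 1 to 24 h trbl rose by 0.51 ± 0.09 (7.75e-05) and Thor by 0.20 ± 0.07 (0.0299), which lost its call in 11 of 30 fits with 1 library left out. These are 2 of 8 genes of the list, where 30.7% of all genes passed in this average. The TBI library of 15 d with 800 CPM of Xbp1 was also the higher of its group in Nmdmc (128 CPM, against 38.9 in the other), Thor (515 and 278 CPM) and trbl (44.5 and 20.3 CPM). At 24 h on day 1 eIF2alpha held 69.5, 65.4 and 70.2 CPM in TBI heads, against 43.8, 51.4 and 58.2 CPM in sham heads (0.42 ± 0.12, edgeR, adjusted p = 0.0208). That call was lost without TBI replicate 1 or 3 or without sham replicate 1 or 2 (0.0568 to 0.158), and on day 2 the same RNAs gave 0.29 ± 0.15, which did not pass (adjusted p = 0.280). Thor, Nmdmc and trbl answer to other inputs besides crc, such as insulin signalling for Thor, and counts do not separate these.

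**Figure D5:**
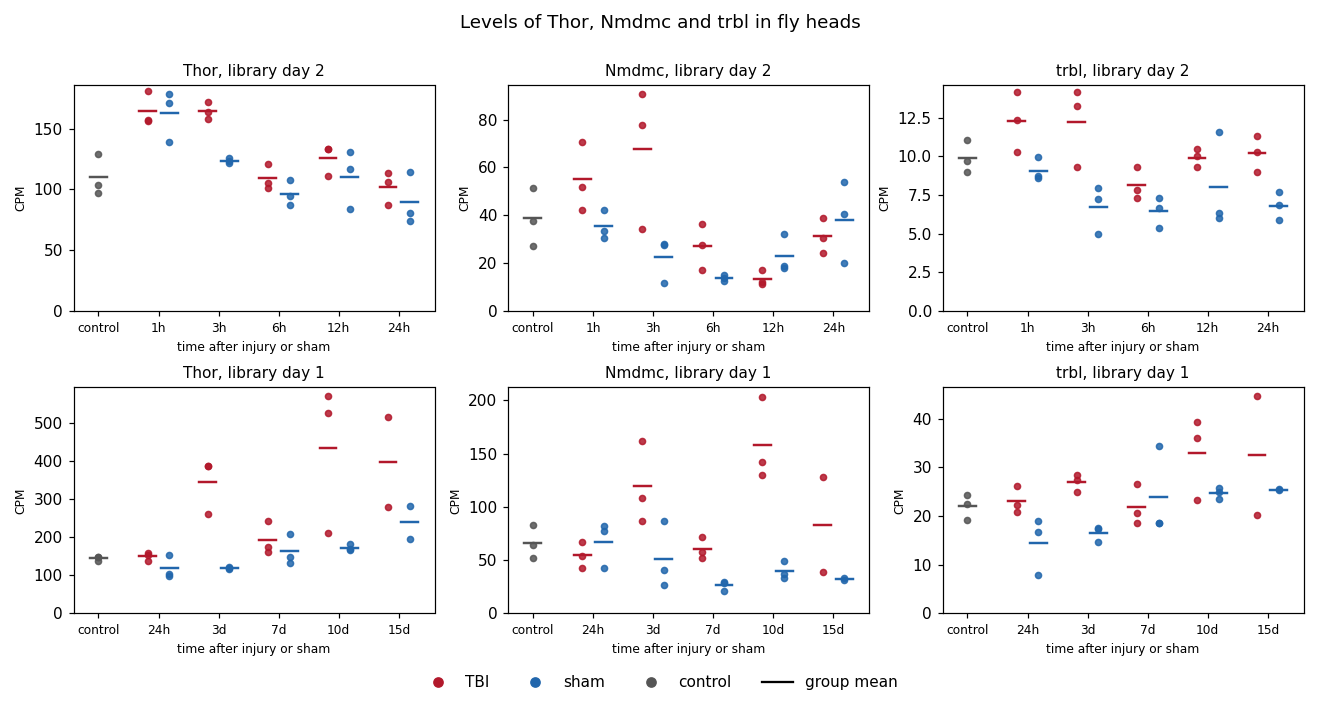
Levels (CPM, linear axes from 0) of Thor, Nmdmc and trbl in each library, library day 2 above and day 1 below, by time after injury or sham, with TBI in red left of sham in blue and controls in grey; horizontal lines are group means. Nmdmc and trbl separate from sham at 3 h, and Thor separates at 3 d, where TBI libraries lie at 261 to 387 CPM and sham libraries at 118 to 121 CPM.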

How the data were processed

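Transcripts of fly heads were counted in 64 libraries. The deposited table holds raw gene counts, 1 column per library, with 5 categories of unassigned reads that were left out of all tests. Per the submitters' processing notes FastQC, MultiQC, HISAT2, Picard, HTSeq and DESeq2 were used. The sources used here give neither their versions nor the build, annotation or strand option of the counting. Of the gene IDs 17343 were matched to symbols and 138 were not, and positions and exon lengths come from the BDGP6.54 annotation (Ensembl release 115).

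Counts were tested with edgeR 4.0.16 in R 4.3.3, 1 quasi-likelihood fit of 11 groups per library day (TMM factors, filterByExpr, robust), with p-values adjusted over all genes by the Benjamini-Hochberg method. The labels give 55 RNAs, 9 of them prepared on both days, while the series text gives 52, so the days were fitted apart and compared on the 9 RNAs with the RNA as a block. Standard errors were taken as the size of the log2 fold change over the root of the F statistic. CPM are scaled by library size and TMM factor. Counts of members or list genes at an unadjusted p under 0.05 have no share over all genes beside them, since that share was not counted. Steps were tested on simulated data. Replicates are separate pools of heads, as far as the labels say.

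The 8 genes and all lists were chosen with earlier results of these data known. All 8 are described in every comparison. Of the list genes up to 4 passing ones with the largest change are named per list and comparison of TBI with sham, and for likeness to Hsc70-3 the 5 genes with the highest r. List genes that passed the tests of sham and control levels or of library days are not listed. Of the lists, 3 symbols (Pdi, TER94 and Psat) had no match among the counted genes, so the list counts leave these genes out. The series text calls sham and TBI flies paired. Same-numbered libraries deviated together (r over 0.1 in every pair) at 1 h, 6 h and 24 h of day 2 and at 3 d, 7 d, 10 d and (with only 2 pairs) 15 d, and not at 3 h, 12 h or 24 h of day 1. The 24 h RNAs were the same on both days, and their replicate 2 had r = 0.121 on day 2 and 0.0791 on day 1. The r ran from -0.19 to 0.70 over 15 pairs of day 2 and from 0.0791 to 0.486 over 14 pairs of day 1. Alternatives were DESeq2 1.42.0, RLE factors, no filter, scaling without mitochondrial genes, the replicate number as a block, fits of the compared groups alone, both libraries of each 24 h RNA summed, and leaving out each library. Sham and TBI as pairs within each time was added after the data were seen.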

Additional observations from a re-analysis of the deposited data

Results flagged for a closer look

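The TBI effect on PEK differed between the 5 times of library day 2 in a joint edgeR test of the difference itself (adjusted p = 0.0386). On the log2 scale the effect was 0.50 (1 h), 0.28 (3 h), 0.14 (6 h), 0.04 (12 h) and 0.02 (24 h). The test was passed in DESeq2 (0.00157) and missed when genes of low count were kept (0.119) or the replicate number was a block (0.0621). No group had more than 3 samples, so no single library was tested for standing apart.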

How the results depend on the processing

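Of 2616 values of the 8 genes recomputed under other settings, 2563 stayed on their side of the threshold, 40 lost their call, 13 gained one and no called value reversed. Of the 2563, 149 that passed in neither setting changed sign. The number of members called at 1 h, 2 in the results, was 1 with no filter on low counts, 1 with only the groups compared and 1 to 2 with a library left out. At 3 h it was 0 with no filter, 0 with only the groups compared and 0 to 2 with a library left out, against 1. At 24 h it was 1 on each day, against 0, with sham and TBI of a number as a replicate block within each time (Calr), where 18.1% of all genes passed on day 2 and 27.6% on day 1, and 0 to 1 on day 1 with a library left out. At 15 d it was 0 to 1 with a library left out, against 0. In the average over 3 d to 15 d it was 0 with only the groups compared and 0 to 1 with a library left out, against 1. In the joint test of the TBI effect by time on day 2, against 1, it was 2 in DESeq2, 2 with the replicate block within each time (PEK and Ire1; 12.1% of all genes), 0 with the replicate number as a block, 0 with no filter and 0 to 2 with a library left out. Except for these, the count of members called stayed within 1.5 times. The replicate block changed no other call of a member between TBI and sham. The cause of these shifts was not tested, except that leaving out libraries or fitting only the groups compared leaves fewer samples. The lowest count of a member was 646, and whether depth limited any member was not tested. Among the 8 genes Gp93 had the largest standard error of the differences at single times of day 2, at 0.32.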
